A study of Homo sapiens with 4 samples.

Results

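TGF-beta ligands, receptors, SMAD proteins and a TGF-beta-induced matrix gene were followed in 2 human cancer cell lines transfected with a microRNA. The genes were TGFB1, TGFB2, BMP4, TGFBR1, TGFBR2, SMAD2, SMAD3, SMAD4, SMAD7 and TGFBI, 10 of the 43317 gene names on the array. They were taken by name from the scanner files with every probe that carried the name, which gave 14 of 58201 gene probes. The rule uses names alone, but the 10 genes were chosen with earlier results of these data known. Total RNA was hybridised to 1-colour expression arrays in 4 groups: HCT116 with the negative control NC1, HCT116 with miR-891b, A549 with NC1 and A549 with miR-891b. HCT116 is a colorectal cancer line, A549 is a lung cancer line, and all 4 groups received the transfection reagent Dharmafect1. The time between transfection and harvest, and the number of cultures behind each RNA, were not given in the sources used here. Each group had 1 array, so no difference within a line has a replicate check and no p-value is given for one.

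TGF-beta and the related bone morphogenetic proteins are secreted dimers that bring together type I and type II receptor kinases. The type I receptor then phosphorylates receptor SMADs, which join SMAD4 and enter the nucleus to regulate transcription, while SMAD7 is induced by the pathway and restrains it. In epithelial cells the pathway is known for slowing division and for inducing mesenchymal genes, and A549 is a much used model of that second response. HCT116 lacks DNA mismatch repair and is known for inactivating mutations of TGFBR2. A transcript signal for that receptor does not show a working protein.

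The transfected RNA and the 2 ligand probes are shown first, because they define the treatment and what the array read. A microRNA acts mainly through its seed, bases 2 to 8, given in capitals in the mature sequence from RefSeq (GRCh38.p14, chrX:146001100-146001121, minus strand). The probes are those of TGFB1 and BMP4, both 60 bases long, written 5′ to 3′ as in the scanner files.
hsa-miR-891b: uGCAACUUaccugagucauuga
TGFB1 probe: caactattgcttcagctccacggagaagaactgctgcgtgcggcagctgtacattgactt
BMP4 probe: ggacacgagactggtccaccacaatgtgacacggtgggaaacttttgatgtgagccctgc
The letters AAGTTGC, which pair with the seed, were searched in the probes on the strand given, as the probes have the sense of the transcript. They occurred in 229 of 58201 gene probes (0.393%), in 0 of the 14 probes of the 10 genes and in 0 of 102 probes of 70 further pathway genes. A probe covers only a small stretch of a transcript, so this says nothing of sites elsewhere.

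Signals are given as log2 of the processed intensity minus the array's 75th percentile over gene probes, and a change is miR-891b minus NC1 on that scale. A gene counted as measured in a line where its brightest probe was marked well above background on both arrays of the line, and a change was called at 2-fold or more. Probes well above background made up 44.7% to 50.3% of gene probes on the 4 arrays, and no gene spot was saturated. The SD of a log2 change between spots of the same probe had a median of 0.061 in HCT116 and 0.071 in A549. The error model of the scanner software, which estimates the error of a single spot's signal, gave a standard error of 0.20 to 0.26 for the changes of the measured genes in HCT116 and 0.20 to 0.22 in A549. Neither figure covers the spread between cultures. In bulk RNA, fewer cells expressing a gene and less RNA per cell cannot be told apart.

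The line labels were checked with marker genes. All 6 markers listed for A549 were higher in A549 and all 4 listed for HCT116 were higher in HCT116, on the NC1 and on the miR-891b arrays. Some of these markers also differed by 2-fold or more between miR-891b and NC1. AKR1B10, an A549 marker, was higher by 4.47 in HCT116 with miR-891b, from -2.29 to 2.18. In A549, the changes were -1.17 for ALDH3A1, -1.64 for KRT81, -1.14 for KRT18 and 1.03 for CLDN3. Their part in the results was not tested. The epithelial keratins KRT8, KRT18 and KRT19 were well above background on all 4 arrays. Of 8 fibroblast markers, 2 were well above background on each HCT116 array, 4 in A549 with NC1 and 5 in A549 with miR-891b, while COL1A2 and COL3A1 were on none. Both arrays of a line lay on 1 slide, scanned on 1 day, so line and slide cannot be told apart, whereas each comparison of miR-891b with NC1 stayed on its own slide. In part of the HCT116 miR-891b array, dim spots carried stray signal, and 10.5% of gene spots lay in such areas.

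The lines differed most in TGFBI and TGFB2. TGFBI encodes a secreted matrix protein that TGF-beta induces. Its signal was 7.97 in A549 with NC1 and 7.59 in A549 with miR-891b, against -5.84 and -4.93 on the HCT116 arrays, where it was not well above background. TGFBI was therefore at least 2939-fold higher in A549 with NC1 and at least 1694-fold higher with miR-891b, with the dimmest probe that passed the background test on the HCT116 array as the bound. TGFB2, one of the 3 TGF-beta ligand genes, was likewise not well above background on either HCT116 array (-5.66 with NC1 and -5.28 with miR-891b). On the A549 arrays it stood at 0.64 and 1.32, at least 18.2-fold and at least 21.9-fold higher than in HCT116.

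**Figure D1:**
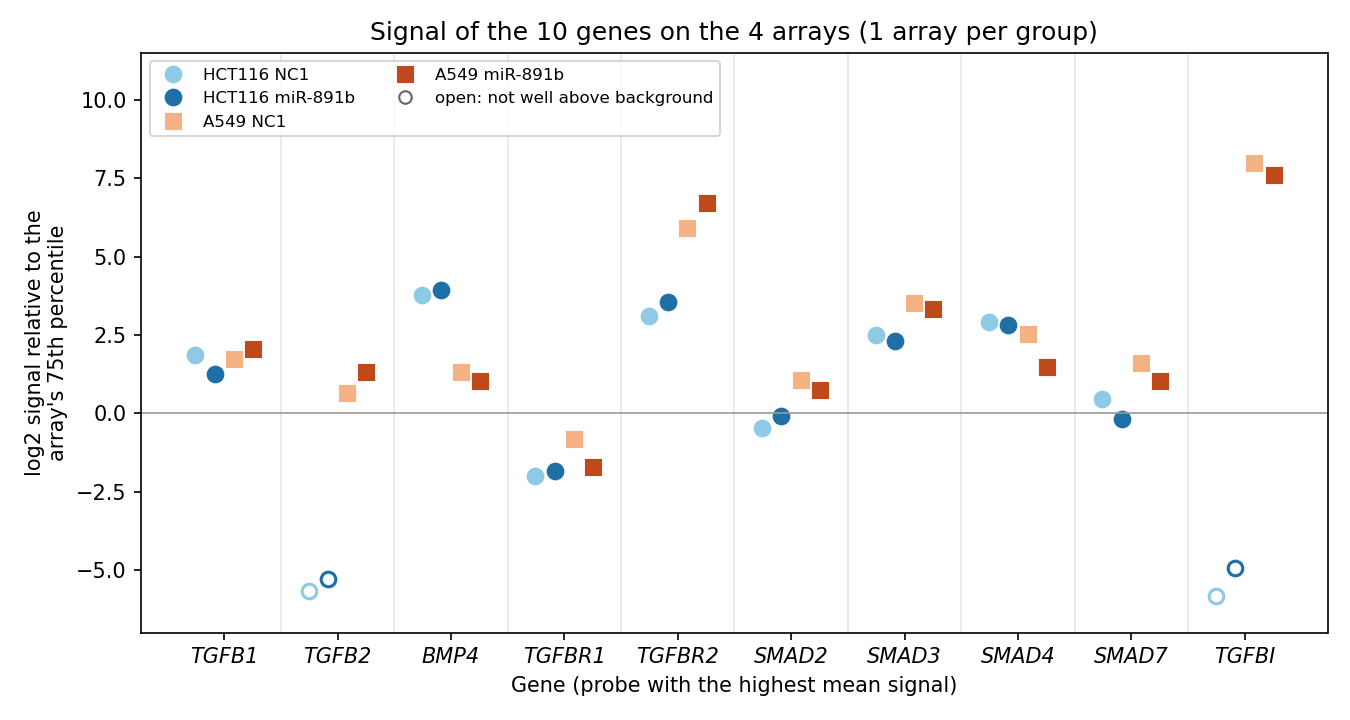
Signal of the brightest probe of each of the 10 genes on the 4 arrays, as log2 relative to the array's 75th percentile; circles are HCT116, squares A549, light NC1 and dark miR-891b, and open symbols were not well above background. TGFB2 and TGFBI have open symbols in HCT116 and filled ones in A549, and levels of different genes come from different probes and are not comparable.

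The promoters of these 2 genes are shown because both were seen in A549 alone. Each is the 250 bases before the RefSeq start, TGFB2 at chr1:218345086-218345335 and TGFBI at chr5:136028738-136028987 (GRCh38.p14, plus strand). Capitals mark CAGAC or its reverse complement GTCTG, the core letters of the SMAD-binding element.
TGFB2: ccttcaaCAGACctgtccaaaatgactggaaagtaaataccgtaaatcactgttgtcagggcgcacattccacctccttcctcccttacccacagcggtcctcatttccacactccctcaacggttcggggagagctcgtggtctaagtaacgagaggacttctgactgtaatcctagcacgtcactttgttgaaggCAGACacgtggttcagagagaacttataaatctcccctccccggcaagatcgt
TGFBI: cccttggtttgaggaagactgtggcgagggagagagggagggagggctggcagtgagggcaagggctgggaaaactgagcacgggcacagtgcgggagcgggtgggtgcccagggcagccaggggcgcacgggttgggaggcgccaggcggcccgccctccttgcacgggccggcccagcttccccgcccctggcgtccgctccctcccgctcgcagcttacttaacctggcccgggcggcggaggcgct
The TGFB2 window held 2 such matches and the TGFBI window 0, while 38% of 35116 promoter windows of that length held at least 1. All 10 genes matched the RefSeq table, with 27 promoter windows, of which 11 held a match. The TGFB2 window had 11 CpG dinucleotides and 50.4% G or C, against 20 and 72.8% for TGFBI and medians of 11 and 58% over all windows.

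Among the 8 genes measured on both NC1 arrays, 6 differed by 2-fold or more between the lines, where 27.3% of 19218 measured genes did. A549 had the higher signal in 5 of them and the lower in 1, against 11.1% and 16.2% of all measured genes. TGFBR2 was higher by 2.83, SMAD2 by 1.5, TGFBR1 by 1.18, SMAD7 by 1.16 and SMAD3 by 1.01. BMP4 differed by -2.47. SMAD4 (-0.39) and TGFB1 (-0.14) lay within 2-fold. On the miR-891b arrays 5 of 8 were past 2-fold, against 32.1% of 18576 genes. TGFBR2 (3.17), SMAD7 (1.20) and SMAD3 (1.00) were higher in A549, where 11.4% of all genes were, and BMP4 (-2.89) and SMAD4 (-1.34) lower, where 20.7% were. SMAD2 (0.85), TGFB1 (0.79) and TGFBR1 (0.12) lay within 2-fold there. These are values of the brightest probe. The second measured SMAD2 probe differed between the lines by 0.61 on NC1 and by -0.87 on miR-891b. With the mean over all probes SMAD2 differed by 0.99 on NC1, and 5 of 8 genes were past 2-fold there. After normexp background correction with quantile normalization, 2 of the 8 genes were past 2-fold on the NC1 arrays and 3 on the miR-891b arrays. The TGFBR1 difference on NC1 was then 0.37, and the share of all genes past 2-fold was not computed in that setting. It adds an offset of 50 to every intensity, while the arrays' 75th percentiles of processed signal were 54.9 to 74.8. Log2 differences of dim genes therefore shrink there by construction, and that setting cannot check their size.

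With miR-891b, no measured gene of the 10 changed 2-fold in HCT116, and 1 did in A549. The HCT116 count was 0 of 8, where 2.0% of 19105 measured genes were past 2-fold (0.843% lower and 1.16% higher). The A549 count was 1 of 10, the lower SMAD4 signal, where 9.58% of 21336 genes were past 2-fold (5.57% lower and 4.01% higher). Both counts are near the shares of all genes. The median change of the measured genes was 0.016 in HCT116 and -0.28 in A549, against -0.041 and -0.059 over all measured genes. Of the 8 genes measured in both lines, TGFBR2 was higher with miR-891b in both at its brightest probe. SMAD3, SMAD4 and SMAD7 were lower in both, and 4 had opposite signs. In HCT116 the second probes of SMAD4 (0.29) and SMAD2 (-0.37) had the other sign. Both SMAD3 changes, and the SMAD4 change in HCT116, were under 1 standard error of the scanner software's model. Changes of more than 2 standard errors of the scanner software's model numbered 3 of 8 in HCT116 (TGFB1, TGFBR2 and SMAD7). In A549 they numbered 5 of 10 (TGFB2, TGFBR1, TGFBR2, SMAD4 and SMAD7). The share of all measured genes past that limit was not computed, so these counts are not read as a trait of the 10 genes.

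**Figure D2:**
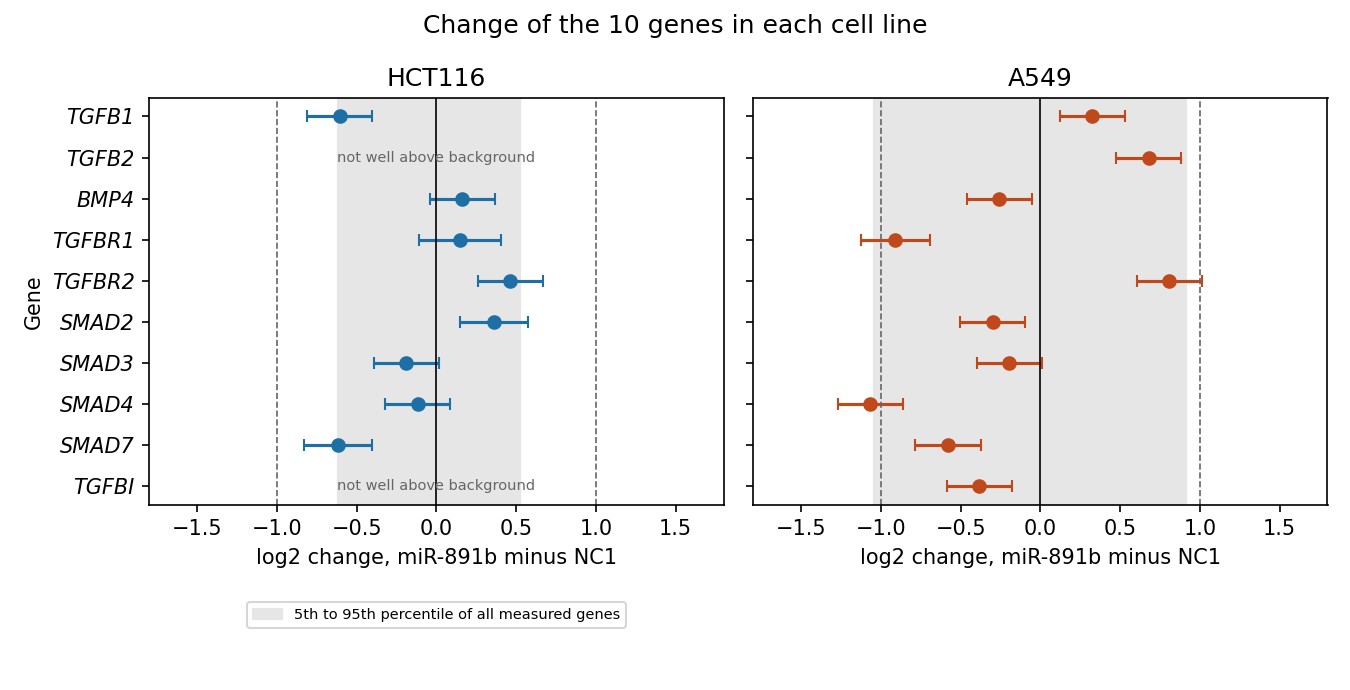
Log2 change with miR-891b for each of the 10 genes in HCT116 (left) and A549 (right); points are the brightest probe, bars 1 standard error of the scanner software's error model, dashed lines 2-fold, and the grey band the 5th to 95th percentile of all measured genes. SMAD4 in A549 lies past the 2-fold line and TGFBR2 is above 0 in both lines.

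Of the ligands, TGFB1 encodes the most widely expressed TGF-beta. Its probe target runs over chr19:41838142-41847802 (hg19, minus strand), a span of 9661 bases for 60 bases of probe, so an intron lies within it. TGFB1 stood at 1.86 with NC1 and 1.26 with miR-891b in HCT116, a change of -0.61, and at 1.72 and 2.05 in A549, a change of 0.33. The HCT116 miR-891b value is the lowest of the 4. That spot, in row 4 of the array, lay in an area of stray signal. There, 20.7% of its neighbours with no more than background on the remaining arrays passed the background test, and the part of the stray signal in the value was not tested.

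TGFB2 (probe at chr1:218614784-218614843, hg19) had a processed intensity of 116.2 with NC1 and 184.7 with miR-891b in A549, a change of 0.68. In HCT116 the intensities were 1.09 and 1.47, not well above background, and no change is given. BMP4 (probe at chr14:54417318-54417377) is a bone morphogenetic protein ligand and was the only 1 of the 10 genes higher in HCT116 than in A549 by 2-fold or more with NC1. It read 3.77 and 3.93 in HCT116 and 1.30 and 1.05 in A549. The changes of 0.16 and -0.26 were both under 2 standard errors of the scanner software's model.

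Of the receptors, TGFBR2 encodes the type II receptor that binds TGF-beta and activates the type I receptor. It was read by 2 probes, at chr3:30735163-30735222 and chr3:30703057-30703116 (hg19). The brighter probe read 3.09 and 3.55 in HCT116 and 5.92 and 6.73 in A549, changes of 0.46 and 0.81. The dimmer probe, designed on another transcript model of the gene, read -0.35 and 0.50 in HCT116 and 0.51 and 1.06 in A549, changes of 0.85 and 0.55. Both probes were thus higher with miR-891b in both lines, and all 4 changes stayed under 2-fold. The dimmer probe also showed a smaller gap between the lines, 0.87 on the NC1 arrays against 2.83 for the brighter one.

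TGFBR1 encodes the type I receptor, the kinase that phosphorylates SMAD2 and SMAD3. Its probe (chr9:101916322-101916381) read -1.99 and -1.85 in HCT116, a change of 0.15. In A549 it read -0.82 and -1.73, a change of -0.91 that stayed within 2-fold. The A549 NC1 value was the highest of the 4, and the A549 miR-891b value lay close to the HCT116 values. The signal was dim, and the A549 change was -0.31 after normexp correction with quantile normalization. The offset of that setting shrinks changes of dim genes by construction.

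**Figure D3:**
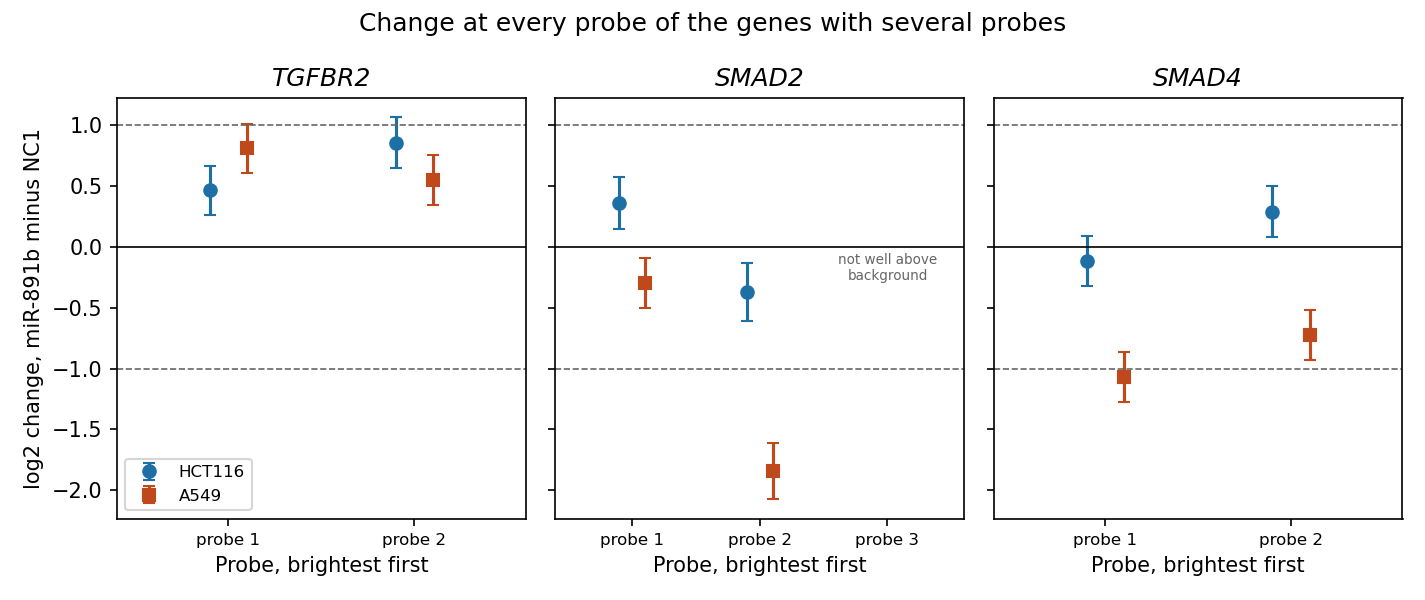
Log2 change with miR-891b at each probe of TGFBR2, SMAD2 and SMAD4, brightest probe first, with circles for HCT116, squares for A549, bars of 1 standard error of the scanner software's error model and dashed lines at 2-fold. Both TGFBR2 probes lie above 0 in both lines, both SMAD4 probes lie below 0 in A549, and the 2 measured SMAD2 probes differ in size in A549.

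SMAD4 encodes the common partner of the receptor SMADs. Its brighter probe (chr18:48611270-48611329, hg19) read 2.92 and 2.81 in HCT116, a change of -0.12, and 2.53 and 1.47 in A549, a change of -1.07. The second probe (chr18:48605060-48605119) read 0.36 and 0.65 in HCT116 and 0.23 and -0.50 in A549, changes of 0.29 and -0.73. Both probes were lowest on A549 miR-891b. The 2 probes had opposite signs in HCT116, and their mean change in A549, -0.90, was within 2-fold. After normexp correction with quantile normalization the A549 change of the brighter probe was -0.90 and no longer called, while TGFBR2 was called instead, at 1.19.

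SMAD2 and SMAD3 are the receptor SMADs of TGF-beta. SMAD2 had 3 probes, which differed in their changes. The brightest (chr18:45348228-45348287) read -0.46 and -0.10 in HCT116 and 1.05 and 0.75 in A549, changes of 0.36 and -0.30. The next (chr18:45360188-45360247) read -0.97 and -1.34 in HCT116 and -0.36 and -2.21 in A549, changes of -0.37 and -1.84, and the third did not pass the background test on any of the arrays. The measured probes therefore had opposite signs in HCT116, and in A549 only the second was past 2-fold. SMAD3 (chr15:67487391-67487450) read 2.51 and 2.32 in HCT116 and 3.51 and 3.32 in A549, a change of -0.19 in each line.

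SMAD7, the inhibitory SMAD, was read by 1 probe (chr18:46446782-46446841). It stood at 0.44 with NC1 and -0.17 with miR-891b in HCT116, and at 1.61 and 1.03 in A549. The changes were -0.62 and -0.58. Within each line the miR-891b array was lower, and both A549 values lay above both HCT116 values. TGFBI (chr5:135399343-135399402), a transcriptional target of the pathway, changed by -0.38 in A549, from an intensity of 18792 to 14308. Its intensities in HCT116 were 0.96 and 1.86. The A549 change was 0.038 after quantile normalization alone, so its direction turned with the scaling.

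Across the lines, the effect of miR-891b was fitted to all 4 arrays with limma, with a term for the line, which left 1 residual degree of freedom. In the main setting no gene of 22712 passed a Benjamini-Hochberg adjusted p of 0.05, against 1214 at an unadjusted p under 0.05. The 10 genes numbered 0 under either threshold there. With normexp and quantile normalization 2 of them, TGFBR2 and SMAD7, had an unadjusted limma p under 0.05, where 1038 of 22707 genes did. With quantile normalization alone TGFBR2 did, where 1177 of 22709 genes did. Over the alternative settings the lowest limma adjusted p of any of the 10 genes lay between 0.755 and 0.837. For TGFBR2 the fitted change was 0.64 with a standard error of 0.25 (limma adjusted p = 0.793). For SMAD7 it was -0.60 with a standard error of 0.23 (limma adjusted p = 0.793). SMAD4 had -0.59 with a standard error of 0.33 (limma adjusted p = 0.793). The fitted TGFB2 and TGFBI values include HCT116 signals at background and are not read here.

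Of 70 further pathway genes in 6 lists, also chosen with earlier results of these data known, 52 were measured in HCT116 and 59 in A549. In HCT116, 1 was at least 2-fold higher and 1 at least 2-fold lower, 2 of 52 against 2.0% of all genes. In A549, 2 were higher and 4 lower, 6 of 59 against 9.58% of all genes. The median changes were -0.13 and -0.033.

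Of the genes that handle ligands outside the cell, 1 of 9 was at least 2-fold higher and 1 lower in HCT116, where 1.16% and 0.843% of all genes were. In A549, 2 of 12 were higher and 1 lower, where 4.01% and 5.57% of all genes were. The 3 higher calls came from ITGB8, in both lines, and LTBP2. ITGB8 encodes an integrin subunit that releases active TGF-beta from its latent complex. It read -0.96 with NC1 and 0.35 with miR-891b in HCT116, and -2.59 and -0.53 in A549, changes of 1.32 and 2.06. It was the only 1 of the 70 genes past 2-fold in both lines. After normexp correction with quantile normalization both of its changes were within 2-fold, at 0.66 and 0.62. The offset of 50 in that setting shrinks changes at such intensities by construction. LTBP2, a latent TGF-beta binding protein, was higher by 1.38 in A549, where its signal was dim (-3.67 and -2.29). The LTBP2 change was 0.17 after normexp correction with quantile normalization, where the same shrinkage applies. LTBP2 was not well above background in HCT116. FSTL3, a follistatin-like antagonist of activins, changed by -1.03 in A549 and -0.053 in HCT116. CHRD, the BMP antagonist chordin, changed by -1.11 in HCT116 and 0.86 in A549, and its second measured probe in HCT116 changed by 0.17. Of the other latent TGF-beta binding proteins, LTBP1 changed by -0.46 in HCT116 and 0.86 in A549, LTBP3 by -0.12 and -0.28, and LTBP4 by -0.41 and -0.45. The list's median was -0.11 over 9 genes in HCT116 and 0.51 over 12 in A549.

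Among the other ligands, receptors and SMADs, no gene measured on both arrays of a line was past 2-fold there. Of all measured genes, 2.0% in HCT116 and 9.58% in A549 were. For ACVR1C, INHBB and SMAD9, 1 array of a line was at background and the bound, or for INHBB the measured ratio, was past 2-fold. ACVR1C, a type I receptor, was at least 3.26-fold higher with miR-891b in A549, where it read -4.44 with NC1, not well above background, and -2.25 with miR-891b. In HCT116 it changed by -0.31. INHBB, which encodes an activin subunit, read -1.84 in HCT116 with NC1 and -3.04, not well above background, with miR-891b. The measured ratio was 2.29-fold and is not a lower bound, as the dim reading lay above the dimmest probe that passed the background test. In A549 INHBB changed by -0.65. SMAD9, a receptor SMAD of BMP signals, was at least 2.11-fold higher with miR-891b in A549, where only the miR-891b array was well above background. It changed by 0.13 in HCT116. Its probe lay in an area of stray signal on at least 1 of the 4 arrays (up to 22.2% of dim neighbours). In HCT116 the median was -0.26 for 3 measured ligands, -0.086 for 9 receptors and 0.067 for 4 SMADs. In A549 it was 0.45 for 6 ligands, 0.29 for 8 receptors and -0.033 for 3 SMADs. TGFB3, the third TGF-beta ligand gene, was dim in both lines and changed by 0.69 in A549, and BMP2 was well above background in A549 alone and changed by 0.59. The co-receptor TGFBR3 changed by 0.44 in HCT116 and 0.22 in A549, and the type I receptors ACVR1 and ACVR1B by -0.23 and 0.29 in HCT116 and -0.24 and 0.68 in A549. SMAD6, the second inhibitory SMAD, changed by -0.90 in HCT116 and -0.33 in A549, the same direction as SMAD7. SMAD1 and SMAD5, which carry BMP signals, changed by 0.021 and 0.11 in HCT116 and 0.058 and -0.033 in A549.

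**Figure D4:**
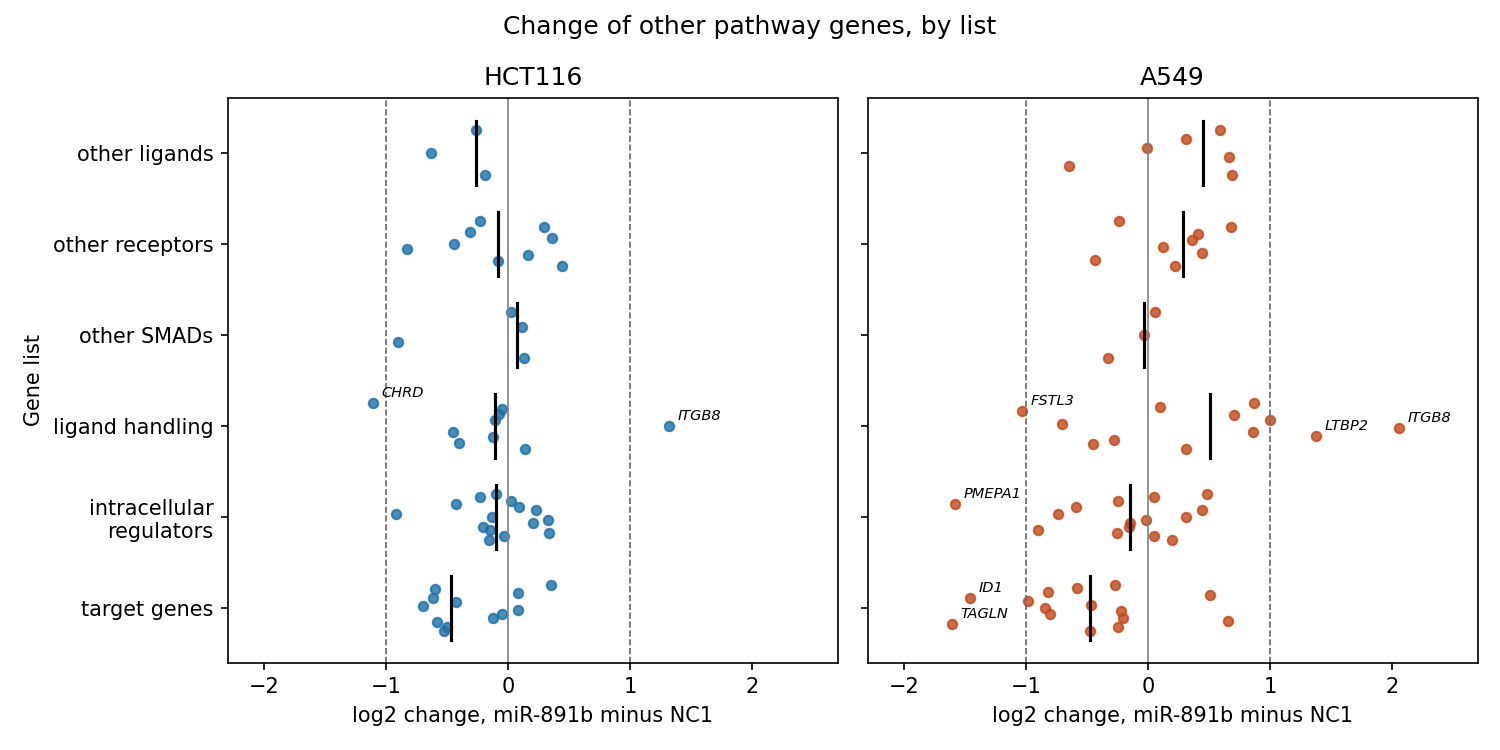
Log2 change with miR-891b for the measured genes of 6 lists of further pathway genes, in HCT116 (left) and A549 (right); each point is 1 gene, black bars are list medians, dashed lines mark 2-fold, and genes past 2-fold are named. ITGB8 lies past the line in both panels, and most target genes lie below 0.

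Of the intracellular regulators, 0 of 15 were past 2-fold in HCT116 and 1 of 15 in A549, where 2.0% and 9.58% of all genes were. The 1 regulator called was PMEPA1, a TGF-beta-induced feedback inhibitor, with a change of -1.58, and its second probe changed by -1.78. In HCT116 PMEPA1 changed by -0.43. Between the lines it was higher in A549 by 6.12 on the NC1 arrays. BAMBI, a decoy receptor, changed by -0.10 in HCT116 and 0.49 in A549, and the ubiquitin ligases SMURF1 and SMURF2 by -0.14 and 0.32 in HCT116 and 0.31 and -0.015 in A549. SKIL, named after its values were seen, a corepressor of SMAD complexes that the pathway induces, changed by -0.93 and -0.74 in HCT116 and A549. SKI, a SMAD corepressor on the same list, went the other way, by 0.23 and 0.45. The SKI probe lay in an area of stray signal on at least 1 array.

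Of the target genes, 0 of 12 were past 2-fold in HCT116, where 2.0% of all genes were. In A549 2 of 15 were lower and 0 higher, where 5.57% and 4.01% of all genes were. TAGLN, a smooth muscle actin-binding protein, changed by -1.60 in A549, with -1.75 at its second probe, and by -0.58 in HCT116. After normexp correction with quantile normalization its A549 change was -0.63, and ID1 and PMEPA1 were the only genes of the lists still past 2-fold. The offset of that setting shrinks changes of dimmer genes, such as TAGLN, by construction. ID1, an inhibitor of differentiation induced chiefly by BMP signals, read 7.98 and 8.06 in HCT116 and 6.46 and 5.00 in A549, changes of 0.082 and -1.46. Its relatives ID2 and ID3 changed by -0.62 and -0.43 in HCT116 and -0.98 and -0.47 in A549. CTGF, a matricellular protein, was well above background in A549 alone and changed by -0.82. Target genes below 0 numbered 9 of 12 in HCT116 and 13 of 15 in A549, against 55.45% and 55.6% of all measured genes, and the list medians were -0.47 in both lines. Of the 12 targets measured in both lines, 8 were lower in both and 0 higher in both, where 33.8% and 21.1% of 18064 genes were. COL1A1, which is also on the fibroblast list, changed by -0.60 in HCT116 and -0.59 in A549. The fibroblast marker LUM was higher by 2.14 in A549 and THY1 changed by -1.04, and their part in the A549 values was not tested.

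For the 3 genes of the 10 with the widest range over the arrays among those well above background on all 4, the gene with the nearest profile was sought among 13365 named genes, by Euclidean distance between log2 profiles centred on their own mean. With only 4 arrays such matches describe these arrays alone. TGFBR2 was nearest to CTSLP8, a cathepsin pseudogene whose near-identical copies may bind the same probe, at a distance of 0.24. BMP4 was nearest to PWP2, at 0.071, and SMAD7 to GK, at 0.039. The median distances to all genes were 3.32, 2.52 and 1.60.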

How the data were processed

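Each of 4 groups had 1 Agilent 1-colour array, labelled with Cy3 from 100 ng of RNA. The deposited scanner files hold intensity values made by the authors with Agilent Feature Extraction 11.5.1.1, per the submitters' processing notes, with spatial and multiplicative detrending on, per the file headers. Coordinates are on hg19, per the file headers. The deposited table of the authors' processed log2 values differed from the scaled scanner values by a median of at most 0.0069, so scale and centring are those of the main setting.

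Outlier spots were left out, log2 processed signals were averaged per probe, and each array's 75th percentile was subtracted. A gene was its probe with the highest mean. All 10 genes are named, with list genes past 2-fold, examples per list, and the nearest profiles. The members and lists were chosen with earlier results of these data known. Values were computed in Python 3.11.15 and fits in limma 3.58.1 (R 4.3.3), tested on simulated data. Stray areas were defined as at least 10% of dim neighbours (within 10 rows and columns) being well above background. Alternatives were normexp (offset 50) with quantile, quantile and median scaling, the authors' values, probe means, no dim filter, no stray areas, and 1.5-fold or 3-fold calls. With 1 array per group, the number of arrays limits all precision.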

Additional observations from a re-analysis of the deposited data

Results flagged for a closer look

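At the brightest probe, the changes of TGFB1, TGFBR1, SMAD2 and BMP4 had opposite signs in the lines. Each came from 1 array per group, and none of these differences was tested. The second measured SMAD2 probe was lower in both lines (-0.37 and -1.84). In HCT116 the TGFB1 spot with miR-891b lay in an area of stray signal. The TGFBR1 change there was 0.15 with a standard error of 0.26 in the scanner software's model. Both BMP4 changes were under 2 standard errors of that model. The A549 change minus the HCT116 change was 0.93 for TGFB1, -1.06 for TGFBR1, -0.66 for SMAD2 and -0.42 for BMP4. Signs were also opposite for CHRD (1.97) and ID1 (-1.54) among the further pathway genes, but the second CHRD probe changed by 0.17 in HCT116. The difference was -0.29 for the median of the 10 genes, 0.71 for the other ligands, 0.37 for the other receptors, -0.10 for the other SMADs and 0.62 for ligand handling, with signs that differed between the lines.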

How the results depend on the processing

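Of 18 changes of the 10 genes within a line, 16 kept their sign over the 7 other settings that give values. The exceptions were SMAD4 in HCT116 (-0.12 to 0.087) and TGFBI in A549 (-0.38 to 0.038). TGFBR1 in HCT116 fell to 0.00032 with normexp and quantile normalization. Leaving out the dim filter or the stray areas could not turn a sign, as the values that remained were those of the main setting. The authors' values are on the main scale to a median of at most 0.0069. At 1.5-fold, 2 of 8 measured genes of the 10 were called in HCT116 and 4 of 10 in A549. Of the further pathway genes, 9 of 52 and 25 of 59 were. Over all measured genes, 1827 of 19105 and 5628 of 21336 were. At 3-fold 0 of 10 were called in A549, with 0 of 52 and 2 of 59 pathway genes. Over all measured genes, 81 of 19105 and 550 of 21336 were past 3-fold. At 3-fold 2 of 8 genes differed between the lines on NC1 and 2 of 8 on miR-891b. Normexp with quantile normalization gave 2 of 8 and 3 of 8 between the lines. The shares of all genes that differed between the lines in these alternative settings were not computed. Within the lines it gave 0 of 51 pathway genes in HCT116 and 2 of 59 in A549. Quantile normalization gave 2 of the 10 genes in A549 (TGFBR2 at 1.15 joined), where 2039 of 21331 genes were called. Probe means gave 0 of the 10 there, against 1944 of 21381 genes. In HCT116 probe means gave 1 of 52 pathway genes, against 466 of 19155 genes. With no filter on dim probes, 10 of 70 pathway genes were called in A549, against 6013 of 43310 genes. The limma model then called 6 genes, 0 of them among the 10. Without areas of stray signal TGFB1 had no value. Among called genes in HCT116, the share higher with miR-891b was 57.9%, against 72.7% with normexp and quantile normalization, 64.3% with median scaling, 50% with quantile normalization, 49.3% without areas of stray signal and 40.9% at 1.5-fold. With normexp and quantile normalization, calls over all genes fell from 382 of 19105 to 44 of 19095 in HCT116. In A549 they fell from 2043 of 21336 to 767 of 21307. With no filter on dim probes there were 4222 such calls in HCT116 and 6013 in A549, each of 43310 genes. The offset of 50 in the normexp setting shrinks log2 changes of dim genes by construction, so its lower counts cannot check those changes. How much of the fall this made up, and the cause of the other shifts, was not tested. The limma model pairs the arrays by line, and no block by replicate number could be fitted, since each group had 1 array. Signals near background, as for TGFBR1, also limit precision.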
